A study of Mus musculus with 16 samples.

Results

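The cells described here are the immune cells of the mouse spinal cord that the deposited cell table places in Cluster 12 and names Immuno. They were taken by that annotation alone and came to 288 of 18203 cells (1.58%). Immune cells reach the injured cord from the blood and from the membranes around it. Monocytes enter in the days after a lesion and become macrophages that clear debris, macrophages of the meninges and perivascular spaces are resident there before any injury, and lymphocytes and dendritic cells are few. Antigen-presenting cells load peptides onto major histocompatibility complex (MHC) class II molecules, which are built from the α and β chains of H2-A and H2-E and need the invariant chain Cd74 for their assembly.

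Each library was made from the cord tissue of 1 mouse by droplet capture of single cells with 3′ counting of unique molecular identifiers (UMIs), each of which stands for a captured RNA molecule. The series asked what the loss of Ryk, a Wnt receptor, in astrocytes changes around a cut of the dorsal columns of the cervical cord. There were 16 mice, 2 in each of 8 conditions. Mice were perfused before dissection, and digestion with pronase took place in the presence of actinomycin D, which blocks transcription.

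Control mice carried Ryk+/+ together with GFAPcreERT2 (WT below), and knockout mice carried Rykfl/fl together with GFAPcreERT2 (cKO below), so both genotypes held the Cre transgene. All were 8 to 10 weeks old, and according to the methods the mice of the study were given tamoxifen around the time of the operation. Cre is driven by the GFAP promoter, which is active in astrocytes, so the immune cells were not the intended target of the deletion. Mice were taken uninjured (the labels say sham) or at 1 d, 7 d or 14 d after the lesion.

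Several libraries stand apart. WT 1 d replicate 2 held 1 cell in all, which was not an Immuno cell. cKO uninjured replicate 1 held 0 Immuno cells of 208, which allows a share of up to 1.44% by a floor of 3 cells. The exact binomial 95% interval, used for the other shares, reaches 1.76% in that mouse. The other 14 mice had Immuno cells, and 10 of them had at least 10, the minimum for a mouse to enter a test of expression. Those 10 mice were WT uninjured replicate 2 (33 cells), WT 1 d replicate 1 (44), cKO 1 d replicates 1 and 2 (45 and 22), WT 7 d replicate 1 (26), cKO 7 d replicates 1 and 2 (34 and 22), WT 14 d replicate 1 (10) and cKO 14 d replicates 1 and 2 (10 and 15). The uninjured side of every test of expression is therefore 1 mouse, and each injured WT mouse in the tests is a replicate 1. Where a day holds 1 WT mouse, that mouse is assumed to vary like the others. The same is assumed of the single uninjured mouse, whose side has no spread of its own.

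Depth was uneven. The Immuno cells held 1034704 UMIs in all, with a median of 1015.5 UMIs and 638.5 genes per cell, and the 10 mice held 11044 to 326848 UMIs, of which cKO 7 d replicate 2 alone gave 31.6% of the UMIs of all Immuno cells. Median UMIs per Immuno cell were 595.5, 673, 412.5 and 866.5 in the first replicates of 1 d (WT, then cKO) and of 7 d (WT, then cKO), the shallow libraries, which held 149 of the 288 cells. In cKO 1 d replicate 2 and cKO 7 d replicate 2 they were 5778 and 13995. The cell table's batch number equals the replicate number in 16 of 16 mice. The names of the cells give another condition than the sample titles for 6 mice, all of them replicate 2, with 69 Immuno cells; titles were followed. For 14 Immuno cells the barcode also occurs in another mouse.

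The label holds for the antigen-presenting and macrophage markers. Ranked by fold over all other cells, the 10 leading genes included H2-Eb1, Cd74, H2-Ab1 and H2-Aa of the MHC class II pathway, Ccr2 (the monocyte receptor for Ccl2), S100a4 (a calcium-binding protein of motile cells), F13a1 (the A subunit of coagulation factor XIII), Pf4 (platelet factor 4, also made by resident macrophages) and Mrc1 (the mannose receptor). These are ranks of a cluster against the cells it was separated from, and no test was made. Pooled over the mice, Cd74 was at 6106 CPM (UMIs of the gene per 1000000 UMIs of the cells), against 160.4 in the next highest cluster. H2-Aa was at 2211, Lyz2 (lysozyme) at 7202 and Ccr2 at 655 CPM, and for each of these 4 markers Cluster 12 ranked highest of the 17 clusters. Lyz2 was the least particular, with 5299 CPM in Cluster 16, the cluster named myeloid cells.

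Not every Immuno cell carried them. At least 1 UMI of Lyz2 was found in 74.3% of the Immuno cells, of Cd74 in 42.7%, of Ccr2 in 29.9% and of H2-Aa in 28.1%. In Cluster 4, oligodendrocytes that should lack these genes, the shares were 1.75%, 0.962%, 0.113% and 0.226% at a median of 1115 UMIs per cell, so free RNA gave a low background. The label covers several kinds of cell: 186 cells held UMIs of at least 2 of the listed monocyte and monocyte-derived macrophage genes, 123 of border-associated macrophage genes, 50 of B-cell genes, 47 of dendritic-cell genes, 18 of T-cell genes and 7 of NK-cell genes. Genes of homeostatic microglia reached that number in 86 cells, with P2ry12 at no more than 95.3 CPM in any of the 14 mice and Sall1, a transcription factor of microglia, at 0.

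RNA of other cells was present in these counts. The oligodendrocyte list, led by Mbp (myelin basic protein), reached at least 2 genes in 119 cells (41.3%), and its summed level ran from 381 CPM in WT 14 d replicate 1 to 3554 in WT uninjured replicate 2 among the 10 mice. Endothelial genes, led by Flt1 (a Vegf receptor), summed to 1391 CPM in cKO 14 d replicate 2 and 1044 in cKO 1 d replicate 1 and to no more than 467 in the other 8, although WT 14 d replicate 2, with 8 cells, held 3475. Dcn, a proteoglycan of fibroblasts, stood at 977 CPM in cKO 14 d replicate 1 and at no more than 272 in the other 13 mice. Astrocyte and neuron genes reached at least 2 UMI-bearing genes in 41 and 18 cells, fibroblast genes in 3 and red cell genes in 6. Doublets were not called, and the part of such RNA in the results below was not tested.

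The mice also differed in sex. Xist, the RNA of the inactive X chromosome, was counted in WT uninjured replicate 2, cKO uninjured replicate 2, cKO 1 d replicate 1, WT 7 d replicate 2 and WT 14 d replicate 2, and was at 0 in the other 9. Only cKO 1 d replicate 1 and WT uninjured replicate 2 of these are among the 10 tested mice, so cKO 1 d replicate 1 is the sole injured mouse in the tests with Xist, and the part of sex in the results was not tested.

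Set beside the microglia of the same mice, the Immuno cells were told apart by antigen presentation. Differences were taken within each of 10 mice as log2(CPM + 50), and genes are named that had the same sign in every mouse. Against Cluster 10, the microglial cluster with high Apoe and Spp1, the largest mean differences were H2-Eb1 (4.53 ± 1.90, SD, n = 10), H2-Aa, H2-Ab1, Cd74 and S100a6, a calcium-binding protein. Ctsd, the lysosomal protease cathepsin D, was lower by the largest margin (-3.53 ± 2.08), at 2521 ± 5138 CPM in Immuno cells and 11144 ± 5734 in Cluster 10. Plxdc2, Fgf13 and Sparc were also among the 5 largest differences in that direction.

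Against Cluster 6, the microglial cluster with more P2ry12 and Cx3cr1, the same 4 MHC class II genes and S100a6 were highest, with Cd74 at 5.30 ± 1.36 (SD, n = 10). Csmd3, Plxdc2, Nav3, Sparc and Nav2 were lowest. Sparc, a secreted matrix protein, stood at 101 ± 84.7 CPM in Immuno cells and 2088 ± 493 in Cluster 6. Against Cluster 16, in 5 mice, Cd74, H2-Ab1, H2-Aa, H2-Eb1 and Apoe were higher, and the neutrophil genes S100a9, S100a8, Ngp, Camp and Retnlg were lower. S100a9, a subunit of the antimicrobial dimer calprotectin, was at 10.2 ± 10.0 CPM in Immuno cells and 65879 ± 41639 in Cluster 16. The clusters were made from these values, so no p-value is given.

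Clustered again among themselves, the 288 cells fell into 10 sub-clusters. They are described by leading genes and by the mice they came from, with no test. Sub-cluster 5 (66 cells) had Thbs1, Spp1, Ccl24, Ccl2 and Ccl7 among its leading genes, and it came only from the 3 mice of 1 d that have Immuno cells, with 22 cells in WT and 28 and 16 in cKO. Sub-cluster 1 (29 cells, 9 mice) was led by Lyve1, Vsig4, Folr2, C4b, Gas6, Ednrb and Cbr2 and is border-associated macrophage-like by its markers Lyve1, Folr2 and Cbr2. Sub-cluster 3 (44 cells, 12 mice) was led by Dcn and Apod, fibroblast genes found in 11.4% and 27.3% of its cells. It also held Pf4 and Maf among its leading 10, in 45.5% and 38.6% of its cells, and it stays unnamed.

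Sub-cluster 2 (20 cells) held Gpnmb, Atp6v0d2, Fabp5, Ctsd, Cd63 and Trem2, genes of lipid-loaded phagocytes, and all of its cells came from cKO 7 d replicate 1. Gpnmb, a lysosomal membrane glycoprotein, was at 13089 CPM there and 5.94 in the other Immuno cells. Sub-cluster 6 (19 cells) was led by Vpreb3, Reln, Cecr2 and Rag1, with Ebf1, and 15 of its cells came from WT uninjured replicate 2. Vpreb3 and Rag1 are used by developing B cells, Rag1 for cutting the antigen receptor genes. Sub-cluster 10 (13 cells, 7 mice) carried Ighd, Igkc, Pax5 and Ms4a1 and is B-cell-like.

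Sub-cluster 7 (17 cells, 11 mice) was led by Ccl5, Skap1, Gzma, Trbc2, Cd3e and Nkg7, which are 3 T-cell markers, 2 NK-cell markers and a chemokine. Sub-cluster 9 (16 cells, 6 mice) held Cd209a, a lectin of monocyte-derived dendritic cells, and Ccl17, a chemokine for T cells, and its cells were the deepest, with a median of 14728 UMIs. A dendritic-cell name would rest on 1 marker among its leading 10, so it stays unnamed, and high depth is also what a pair of cells in a droplet would give, which was not tested. Sub-cluster 8 (33 cells, 10 mice) held the monocyte gene Plac8 in 78.8% of its cells. The endothelial genes Adgrl4, Slco1a4 and Flt1, also among its leading genes, were found in 12.1%, 12.1% and 21.2%. At least 2 monocyte genes were found in 87.9% of its cells and at least 2 endothelial genes in 21.2%. Sub-cluster 4 (31 cells, median 502 UMIs) was led by Gm13341, Gm12254 and Gm9843 and came mainly from shallow libraries.

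**Figure D1:**
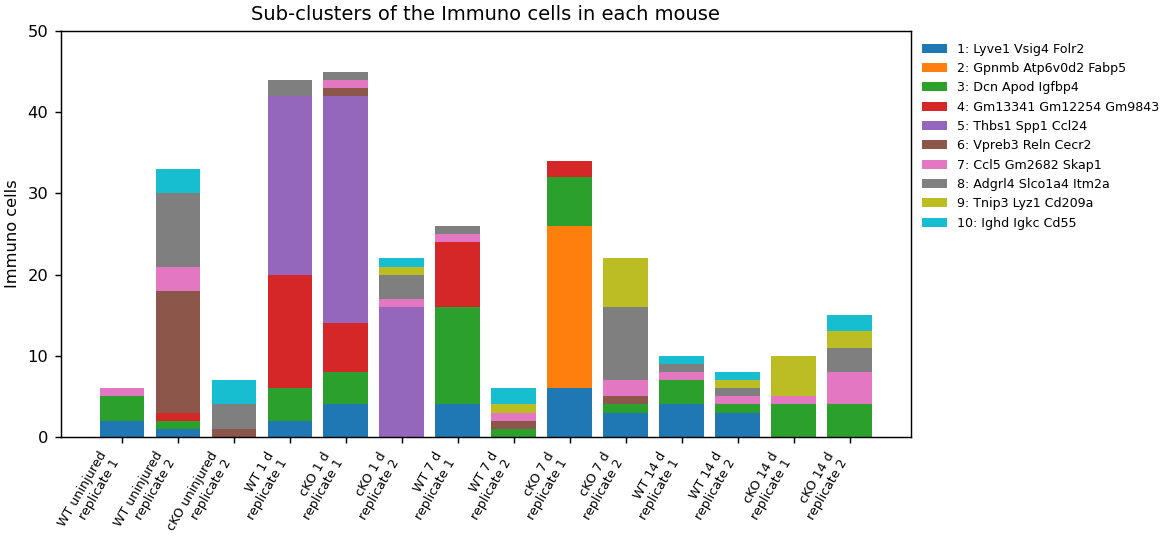
Number of Immuno cells (vertical axis) in each of the 14 mice that have any (horizontal axis), stacked by sub-cluster, with 3 of the leading genes of each in the key. Sub-cluster 5 (Thbs1 Spp1 Ccl24) fills 22, 28 and 16 cells of the mice of 1 d, the 20 cells of sub-cluster 2 (Gpnmb) stand in cKO 7 d replicate 1, and 15 cells of sub-cluster 6 (Vpreb3) in WT uninjured replicate 2.

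Immuno cells made up their largest shares in the shallow mice of 1 d, while cKO 1 d replicate 2 lay among the mice of 7 d. They were 4.29% (exact binomial 95% interval 3.14 to 5.72) of the cells in the WT mouse and 3.68% and 1.19% in the cKO mice of 1 d. At 7 d they were 2.16% and 0.714% in WT and 1.90% and 1.45% in cKO, and at 14 d 0.986% and 0.613% in WT and 0.881% and 1.00% in cKO. Uninjured mice had 0.612% and 2.38% in WT and 0% and 0.565% in cKO. The ranges overlap: WT uninjured replicate 2 exceeded all mice of 7 d and 14 d. That mouse also held 23 cells of Cluster 16, against 0 or 1 in the other uninjured mice.

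Over mice, the mean share was 1.72% after injury (SD 1.23, n = 11) and 0.891% without (SD 1.03, n = 4), a difference of 0.825 percentage points that did not pass an exact two-sided permutation test (p = 0.248). With the shallow libraries left out it was 0.0862 (exact permutation p = 0.830) and with at least 500 UMIs per cell 1.39 (exact permutation p = 0.242). It was 1.32 without WT uninjured replicate 2 (exact permutation p = 0.0549) and 0.528 without cKO uninjured replicate 1 (exact permutation p = 0.544). For cKO minus WT after injury the mean difference over the 3 days was -0.492 percentage points (exact two-sided permutation within days, p = 0.657, n = 6 and 5). The direction turned with the replicate number, which equals the batch, as a block (0.113), with the shallow libraries left out (0.437) and without WT 1 d replicate 1 (0.190). It was -0.907 without cKO 1 d replicate 1, -0.0778 without cKO 1 d replicate 2, -0.251 without WT 7 d replicate 1 and -0.0730 where mice were taken by their cell names.

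Among the cells of Clusters 6, 10 and 12 together, the Immuno share was 33% in WT uninjured replicate 2 and 6.12% and 15.6% in the other uninjured mice with at least 20 such cells. After injury it ran from 5.57% to 26.7%, with a median of 9.93%. The injured minus uninjured difference was -5.79 percentage points (exact permutation p = 0.335, n = 11 and 3), -11.8 without WT uninjured replicate 1 (exact permutation p = 0.0641), -2.81 with the block and 1.60 without WT uninjured replicate 2 (p = 0.821 by exact permutation). The cKO minus WT difference in this share was 0.182 percentage points (exact permutation p = 0.944). It was below 0 with at least 500 UMIs per cell (-0.339) and without cKO 1 d replicate 1 (-0.594), WT 7 d replicate 2 (-0.589), cKO 7 d replicate 2 (-2.32) or cKO 14 d replicate 2 (-0.274). It ran from 0.639 to 3.85 without WT 1 d replicate 1, cKO 1 d replicate 2, WT 7 d replicate 1, cKO 7 d replicate 1 or cKO 14 d replicate 1. It was 1.08 where mice were taken by their cell names and 3.65 with the block in place of the day. It was 8.75 with the shallow libraries left out (exact permutation p = 0.167, the smallest that 12 arrangements allow here). Without the shallow libraries, or without WT 1 d replicate 1, no WT mouse of 1 d remains and only 7 d and 14 d are compared.

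**Figure D2:**
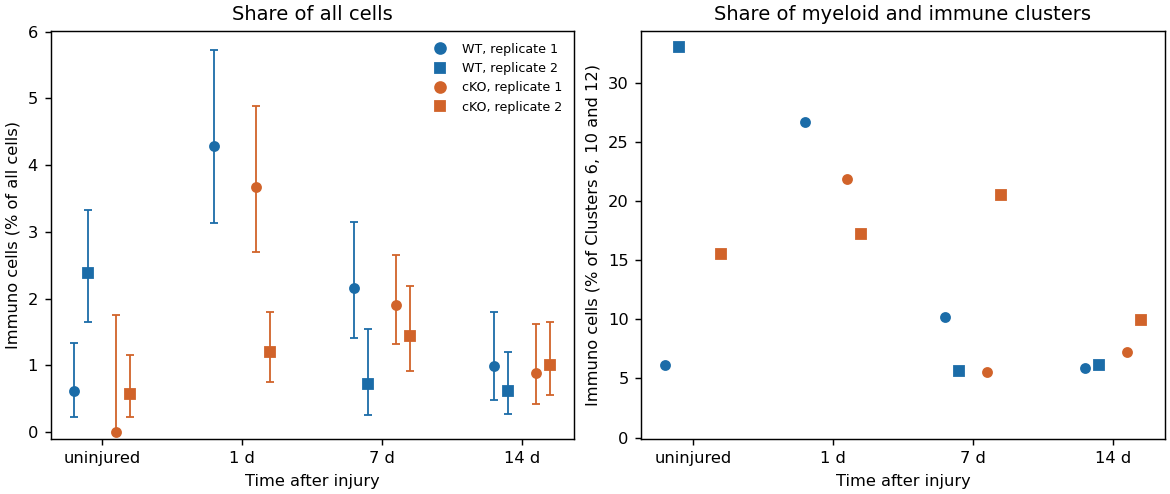
Immuno cells as a percent of all cells of a mouse (left, with exact binomial 95% intervals that cover counting error only) and as a percent of the cells of Clusters 6, 10 and 12 (right), by time after injury, for WT (blue) and cKO (orange), replicate 1 as circles and replicate 2 as squares. WT 1 d replicate 1 is highest on the left at 4.29%, and WT uninjured replicate 2 is highest on the right at 33%.

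Ccl7, Thbs1 and Msr1 fell between 1 d and 7 d. Ccl7 (ENSMUSG00000035373.2, chromosome 11, 82045712 to 82047525, all positions on mm10), a chemokine that draws Ccr2-bearing monocytes, was at 1472 (37 UMIs) in the WT mouse and 1382 (49 UMIs) and 1409.8 (188 UMIs) in the cKO mice at 1 d, in CPM. It was at 0, 0 and 9.18 (3 UMIs) in the mice of 7 d, and 63.6 (2 UMIs) in the WT mouse and 493 (58 UMIs) and 15.7 (2 UMIs) in the cKO mice at 14 d. Day and genotype entered 1 fit over 10 mice and 1992 genes, in which Ccl7 fell by 7.53 on the log2 scale at 7 d against 1 d (SE 1.21, adjusted p = 0.0152, quasi-likelihood test of edgeR, adjusted over all genes tested by Benjamini and Hochberg, as for all tests of expression below). Thbs1 (ENSMUSG00000040152.8, chromosome 2, 118111876 to 118127133), thrombospondin, a secreted activator of Tgf-β, was at 716 (18 UMIs) in the WT mouse and 1241 (44 UMIs) and 1755 (234 UMIs) in the cKO mice at 1 d. It was at 90.5 (1 UMI) in the WT mouse and 30.9 (1 UMI) and 36.7 (12 UMIs) in the cKO mice at 7 d (log2 fold change -5.16, SE 0.82, adjusted p = 0.0152). Msr1 (ENSMUSG00000025044.16, chromosome 8, 39581685 to 39642673), a scavenger receptor for modified lipoproteins, fell from 597, 536 and 420.0 CPM to 181, 0 and 27.5 (log2 fold change -3.82, SE 0.72, adjusted p = 0.0449). In each of these 3 genes the 3 mice of 1 d lay above the 3 of 7 d. Of the 1992 genes tested, 364 were separated without overlap between these days, in either direction. Thbs1 and Msr1 passed the filter on low counts only through the mice of 1 d, so their calls are no support beyond these values. Thbs1 and Ccl7 are among the leading genes of sub-cluster 5, which made up 50% of the Immuno cells of the WT mouse and 62.2% and 72.7% of those of the cKO mice at 1 d, and 0% at 7 d. At least 2 genes of the repair-associated and of the inflammatory list described below were found in 100% and 72.7% of its cells. A change of cells and a change within cells therefore cannot be told apart in these genes and lists.

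Mgl2 (ENSMUSG00000040950.13, chromosome 11, 70130329 to 70137550), a C-type lectin for galactose that marks macrophages and dendritic cells activated by interleukin 4, was called higher at 7 d than at 1 d. It had 0 UMIs in the 3 mice of 1 d and was at 90.5 (1 UMI) in the WT mouse and 217 (7 UMIs) and 260.1 (85 UMIs) in the cKO mice at 7 d. Summed over mice, this is at least 16.2-fold higher at 7 d, against a floor of 3 UMIs over the mice of 1 d (at least 5.07-fold without cKO 1 d replicate 2, which gave most UMIs of that day), and the fitted change had an adjusted p of 0.0233. With 0 UMIs also in WT uninjured replicate 2, the gene passed the filter on low counts only through mice of 7 d and 14 d, so its call is no support beyond these values. Mgl2 stood at 95.3 (3 UMIs) in the WT mouse and 263 (31 UMIs) and 283 (36 UMIs) in the cKO mice at 14 d. The 6 cells of WT uninjured replicate 1, outside the tests, held 8 UMIs (835 CPM).

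At 7 d against 1 d 5 genes were called, 1 higher (0.0502% of the genes tested) and 4 lower (0.201%). An unadjusted p under 0.05 by edgeR was found for 254 of the 1992 genes. Counts of list members at that p below are to be read beside this number. DESeq2 called 23 (1.15%), with Ccl7, Thbs1, Msr1 and Mgl2 among them. With the replicate number, which is also the batch, as a block, 27 genes were called (5 higher, 22 lower; 1.36%), again with these 4 among them, but group means for each genotype and day called 0, with adjusted p of 0.347 for each of the 4. Other settings gave 17 (conditions of the cell names), 57 (no filter on low counts) and 116 (shallow libraries left out, with 1 mouse on each side). The count was 2 without cKO 1 d replicate 2 or without cKO 7 d replicate 2, 3 without cKO 14 d replicate 2, 10 without WT 14 d replicate 1 and 15 without cKO 7 d replicate 1. Of these 4 genes, Ccl7, Thbs1 and Mgl2 were lost without cKO 1 d replicate 2 or cKO 7 d replicate 2, and Mgl2 also without cKO 14 d replicate 1. Mgl2 did not pass the filter on low counts, and so was not called, without WT uninjured replicate 2, without cKO 14 d replicate 2 and with at least 5 or 20 cells per mouse. Without cKO 1 d replicate 2 the adjusted p by edgeR was 0.0734 for Ccl7, 0.110 for Thbs1 and 0.182 for Mgl2, without cKO 7 d replicate 2 0.181, 0.162 and 0.162, and without cKO 14 d replicate 1 0.0794 for Mgl2. Msr1 was lost without any of WT uninjured replicate 2, WT 1 d replicate 1, cKO 1 d replicate 2, cKO 7 d replicate 2 and cKO 14 d replicates 1 and 2, and with at least 5 or 20 cells per mouse (0.0637 and 0.0938), the mice giving adjusted p from 0.0549 to 0.257 by edgeR. With single mice left out, the log2 fold change of Ccl7 ran from -9.45 to -7.20 and that of Thbs1 from -5.48 to -4.50. For Msr1 it ran from -4.37 to -3.27, so these folds stayed about as large where calls were lost.

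**Figure D3:**
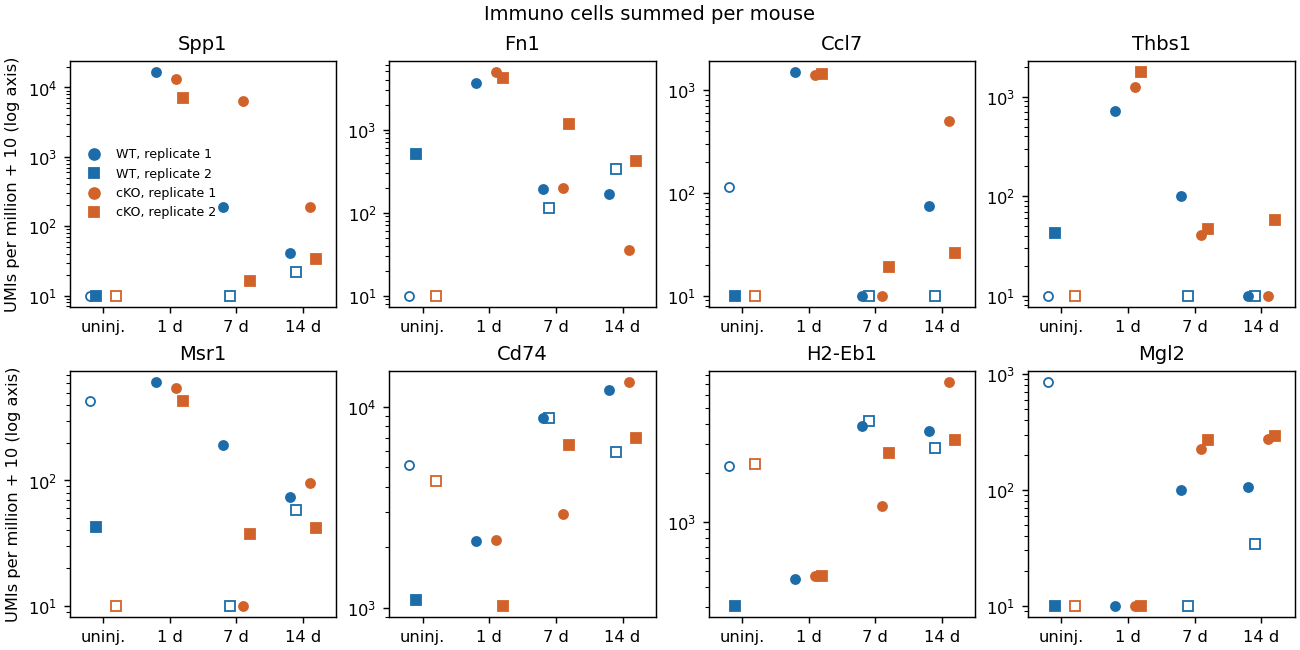
CPM plus 10 (log axis) for 8 genes in the Immuno cells summed per mouse, by time after injury, for WT (blue) and cKO (orange), replicate 1 as circles and replicate 2 as squares; open symbols are mice with fewer than 10 Immuno cells, which entered no test. Msr1 is at 597, 536 and 420.0 CPM in the mice of 1 d and at 181, 0 and 27.5 in the tested mice of 7 d, while Cd74 and H2-Eb1 are lower at 1 d than at 7 d in every mouse; the genes were picked after their values were seen.

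The list of repair-associated macrophage genes had 9 of 13 members tested, of which 1 was called lower and 0 higher, and 3 were above 0, with a median log2 change of -2.11 at 7 d against 1 d, beside 0.04 over all genes tested. Among all genes tested, edgeR called 0.201% lower and 0.0502% higher. Fn1, the matrix protein fibronectin, was at 3659.7 (92 UMIs) in the WT mouse and 4881 (173 UMIs) and 4117 (549 UMIs) in the cKO mice at 1 d, and at 181 (2 UMIs) in the WT mouse and 186 (6 UMIs) and 1150.4 (376 UMIs) in the cKO mice at 7 d (log2 fold change -3.07, SE 0.81, adjusted p = 0.128). Tgfbi, a matrix protein induced by Tgf-β, was at 2228, 1495 and 712 CPM at 1 d and 905, 92.8 and 278 at 7 d (adjusted p = 0.128). Hmox1, heme oxygenase, which opens the heme ring of haemoglobin, was at 1790.0, 734 and 172 CPM at 1 d and at 0, 61.9 and 67.3 at 7 d (adjusted p = 0.128). None of these 3 passed the test of edgeR, but DESeq2 called all 3, at adjusted p of 0.00860, 0.0105 and 0.0206, and so did edgeR with the block, at adjusted p of 0.0109, 0.0490 and 0.0490. Hmox1 passed the filter on low counts only through the mice of 1 d, so its calls are no support beyond these values. In the whole list DESeq2 called 4 genes and the block 5 of the 9 tested, beside 1.15% and 1.36% of all genes tested. Retnla was among those of the block, but it was higher at 7 d, against the direction of the list median. Retnla is a secreted protein of macrophages activated by interleukin 4. It stood at 2328 (761 UMIs) CPM in cKO 7 d replicate 2 and at 0 in the other 13 mice. Retnla passed the filter on low counts only through that mouse, so its call is no support beyond these values. Il10 had 1 UMI.

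Among inflammatory cytokines and chemokines Ccl2, the main ligand of Ccr2, had the highest mean level at 1 d. It was at 3182 (80 UMIs) in the WT mouse and 2991 (106 UMIs) and 2445 (326 UMIs) in the cKO mice at 1 d, in CPM. Ccl2 stood at 362 (4 UMIs) in the WT mouse and 30.9 (1 UMI) and 49.0 (16 UMIs) in the cKO mice at 7 d (log2 fold change -5.16, SE 1.11, adjusted p = 0.109; adjusted p = 0.00755 with the block), and cKO 14 d replicate 1 held 603 CPM. Ccl5, a chemokine of lymphocytes, and Ccl12, another ligand of Ccr2, had higher means than Ccl2 at 7 d (312 ± 334 and 166 ± 249 against 147 ± 186 CPM, SD, n = 3). At 14 d Il1b (388 ± 393) and Ccl5 (242 ± 383) did so, with Ccl2 at 219 ± 334. These differences are within the spread between mice. WT uninjured replicate 2 held 655 CPM of Ccl5 and 0 of Ccl2. Of 16 genes in the list, 8 were tested, 1 (Ccl7) was called lower and 0 higher, and 2 were above 0, with a median of -1.35. In the list 3 had an unadjusted p under 0.05, and DESeq2 called 1 and the block 2. Of all genes tested, edgeR called 0.201% lower and 0.0502% higher, DESeq2 1.15% and the block 1.36%, and 254 of 1992 had an unadjusted p under 0.05. Il1b, the cytokine interleukin 1β, ran from 90.5 to 239 CPM in the tested mice of 1 d and 7 d and reached 841 in cKO 14 d replicate 1. Nos2, the inducible nitric oxide synthase, Il6 and Il12b had 0 UMIs in all Immuno cells, so at this depth they were not detectable.

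The list of monocyte and monocyte-derived macrophage genes had all 12 members tested at 7 d against 1 d, with 0 called by edgeR (7 at an unadjusted p under 0.05; F10 and Fn1 called by DESeq2), 4 above 0 and a median of -1.43. With the block 3 were called by edgeR, F10, Fn1 and Vcan (the matrix proteoglycan versican), at adjusted p of 0.0427, 0.0109 and 0.0427. Of all genes tested, the block called 1.36% and DESeq2 1.15%, and 254 of 1992 had an unadjusted p under 0.05 by edgeR. F10 and Vcan passed the filter on low counts only through the mice of 1 d, so their calls are no support beyond these values. F10, coagulation factor X, was at 318, 677 and 352 CPM at 1 d and 90.5, 0 and 52.0 at 7 d. S100a6 was at 1989, 2172 and 2692 at 1 d and 1087, 92.8 and 1104 at 7 d. Ccr2 (ENSMUSG00000049103.14, chromosome 9, 124101950 to 124113557) did not follow the day, with 358, 536 and 622 CPM at 1 d, 543, 92.8 and 823 at 7 d, 191, 943 and 668 at 14 d and 622 in WT uninjured replicate 2. Its log2 difference from 1 d to 7 d was -0.14 (SE 0.61, adjusted p = 0.947).

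H2-Eb1, H2-Ab1, H2-Aa and Cd74 lay higher in each tested mouse of 7 d and 14 d than in any mouse of 1 d, but none of the 4 was called at 7 d against 1 d by edgeR. Of the 1992 genes tested, 364 were separated without overlap between the mice of 7 d and 1 d, in either direction. H2-Eb1 (ENSMUSG00000060586.11, chromosome 17, 34305867 to 34316674), the β chain of H2-E, was at 438 (11 UMIs) in the WT mouse and 451 (16 UMIs) and 457 (61 UMIs) in the cKO mice at 1 d. It was at 3894 (43 UMIs) in the WT mouse and 1238 (40 UMIs) and 2634 (861 UMIs) in the cKO mice at 7 d, and at 3591 (113 UMIs) in the WT mouse and 7188 (846 UMIs) and 3191 (406 UMIs) in the cKO mice at 14 d. All 3 mice of 1 d lay under all 6 of 7 d and 14 d. The log2 difference at 7 d was 2.37 (SE 0.52, adjusted p = 0.109), which did not pass; with the block it did (adjusted p = 0.0427), and DESeq2 gave 0.000211.

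H2-Aa (ENSMUSG00000036594.15, chromosome 17, 34282744 to 34287823), the α chain of H2-A, was at 477 (12 UMIs) in the WT mouse and 705 (25 UMIs) and 509.9 (68 UMIs) in the cKO mice at 1 d, in CPM. It was at 2535 (28 UMIs) in the WT mouse and 1021 (33 UMIs) and 2344 (766 UMIs) in the cKO mice at 7 d, and at 4227 (133 UMIs) in the WT mouse and 5157 (607 UMIs) and 2240 (285 UMIs) in the cKO mice at 14 d (7 d against 1 d: log2 fold change 1.70, SE 0.50, adjusted p = 0.155). Cd74 was at 2148, 2172 and 1012 CPM at 1 d, 8783, 2909 and 6468 at 7 d, then 12076, 13254 and 7003 at 14 d (7 d against 1 d: log2 fold change 1.68, SE 0.52, adjusted p = 0.187). In both genes every tested mouse of 7 d lay above every mouse of 1 d, beside 364 of the 1992 genes tested that were separated in either direction. In WT uninjured replicate 2, H2-Aa was at 278 (17 UMIs) and Cd74 at 1081 (66 UMIs), whereas WT uninjured replicate 1 and cKO uninjured replicate 2, with 6 and 7 cells, had 1566 and 1928 for H2-Aa and 5117 and 4276 for Cd74.

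Of the 13 genes of MHC class II presentation, 9 were tested, 0 were called at 7 d against 1 d by edgeR, and 9 were above 0 with a median log2 change of 1.70, beside 0.04 over all genes and 51.3% of genes above 0. Before adjustment 6 had p under 0.05 by edgeR, beside 254 of the 1992 genes tested. DESeq2 called 4 genes of the list (Cd74, H2-Aa, H2-Ab1 and H2-Eb1) and the block 1 (H2-Eb1), beside 1.15% and 1.36% of all genes. Ciita, the coactivator that switches on the class II genes, had 1 UMI, 1 UMI and 7 UMIs at 1 d and 3 UMIs, 2 UMIs and 65 UMIs at 7 d. H2-DMa and H2-DMb1, which exchange the peptide on class II molecules, lay under 560 CPM in each mouse. Cd86, a costimulatory ligand for T cells, was at 318, 621 and 30.0 CPM at 1 d and 543, 464 and 138 at 7 d. Ctss, the protease cathepsin S, was at 1565 ± 159 CPM at 1 d, 2784 ± 3274 at 7 d and 1479 ± 545 at 14 d (SD, n = 3 each), and Cd86 was at 323 ± 295 at 1 d and 138 ± 103 at 14 d, so the means of these 2 genes were no higher at 14 d than at 1 d.

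The class II genes were unevenly spread over the sub-clusters. Their summed level was highest in sub-clusters 9, 3 and 10, at 42401, 38325.5 and 16375 CPM, and at least 2 of the genes were found in 100%, 97.7% and 100% of their cells. In sub-cluster 5, which was found at 1 d alone, the level was 2196 CPM and the share 27.3%. Sub-cluster 3 held 4, 4 and 0 cells in the mice of 1 d and 12, 6 and 1 in the tested mice of 7 d, and sub-cluster 9 held 0, 0 and 1 and then 0, 0 and 6. A change within cells and a change of cells therefore cannot be told apart. Markers of other cell types also differed between these mice. Homeostatic microglia genes had 4 of 10 tested and 4 of 4 above 0 (median 1.50, 3 at an unadjusted p under 0.05, 0 called by edgeR or DESeq2), and the list summed to 597, 762 and 555 CPM at 1 d and 1539, 2413 and 1371 at 7 d, with Sall1 at 0. Endothelial genes had 0 of 4 above 0 (median -4.42, or -3.28 with the 1 gene at 0 UMIs on a side set at the bound that 3 UMIs give; 2 at an unadjusted p under 0.05, 0 called by edgeR or DESeq2), and summed to 119, 1044 and 52.5 CPM at 1 d and 0, 30.9 and 147 at 7 d. Their part in the class II values was not tested.

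Genes of lipid-loaded and phagocytic macrophages showed 1 mouse apart from the rest. Gpnmb was at 9778 (316 UMIs) CPM in cKO 7 d replicate 1 and at no more than 90.5 in the other 13 mice. Spp1, the secreted glycoprotein osteopontin, was at 16548 (416 UMIs) in the WT mouse and 13260 (470 UMIs) and 7019 (936 UMIs) in the cKO mice at 1 d. It was at 6405 (207 UMIs) in cKO 7 d replicate 1 and at no more than 181 in the other mice of 7 d and 14 d, and at 0 in the uninjured. Spp1 was thus high in the mice of 1 d and in the mouse with the Gpnmb cells, while Fabp5, a fatty acid carrier, reached 4115 CPM in that mouse and 875, 141 and 210 at 1 d.

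The same mouse, cKO 7 d replicate 1, was highest for Lyz2 (ENSMUSG00000069516.8, chromosome 10, 117277331 to 117282321), at 37161 CPM against 2046 to 11055 in the other 13. Apoe, the lipid carrier apolipoprotein E, was at 58944 CPM there, 21459.6 in WT 7 d replicate 1, 2246 in cKO 7 d replicate 2, 23993 in WT 14 d replicate 1 and 6683, 3949.8 and 1642 at 1 d. The cKO mice of 7 d are far apart, and the days overlap. Ctsd and Trem2, a lipid-sensing receptor, stood at 16956 and 2352 CPM in cKO 7 d replicate 1, against no more than 2506 and 453 elsewhere. Among the 15 genes of the list, all tested, 0 were called in any of the 4 comparisons by edgeR or DESeq2. At 7 d against 1 d 4 had an unadjusted p under 0.05 by edgeR, beside 254 of the 1992 genes tested. At 14 d against 7 d 8 did, beside 91 of 1992. The median was 1.12 at 7 d against 1 d with 10 above 0, and -2.19 at 14 d against 7 d with 0 above 0. Those medians include this mouse, and its part in them was not tested.

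Complement and Fc receptor genes were counted at all times. C1qb, a chain of the complement trigger C1q, was at 955, 762 and 345 CPM at 1 d, 2354, 2630 and 493 at 7 d, then 4671, 595 and 299 at 14 d. At each of these days the tested WT mouse was above the cKO mice except for cKO 7 d replicate 1. Fcer1g, the signalling chain of Fc receptors, had the most UMIs of the list, at 731 to 3178 CPM in the 10 tested mice. All 9 genes were tested and 0 were called at 7 d against 1 d by edgeR or DESeq2, with a median of -0.81 and 3 above 0. An unadjusted p under 0.05 by edgeR was found for 2, beside 254 of the 1992 genes tested. With the block edgeR called 1, the Fc receptor gene Fcgr1 (adjusted p = 0.0456), beside 1.36% of all genes tested. Fcgr1 passed the filter on low counts only through the mice of 1 d, so its call is no support beyond its values.

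Iron and heme genes were high in level. Fth1 and Ftl1, the chains of the iron store ferritin, were at 11774.5, 9564 and 13011 CPM and 12053, 8746 and 8496.5 CPM at 1 d. At 7 d Ftl1 was at 2988, 15068.5 and 1836, with cKO 7 d replicate 1 again the highest of all mice. Of the 8 genes, 6 were tested and 0 called at 7 d against 1 d by edgeR (median 0.11, 4 above 0, 2 at an unadjusted p under 0.05), while DESeq2 and the block each called 1, Hmox1. Of all genes tested, DESeq2 called 1.15% and the block 1.36%. As said above, Hmox1 passed the filter on low counts only through the mice of 1 d. Interferon-response genes had 4 of 13 tested and 0 called by edgeR or DESeq2 (0 at an unadjusted p under 0.05, median -0.74, 1 above 0), and were led by Ifitm3, a membrane protein that hinders viral entry, at 402 to 2066 CPM in the 10 mice. Cell cycle genes had 3 of 10 tested, 0 called by edgeR or DESeq2, 1 at an unadjusted p under 0.05 and 3 above 0 (median 1.03). Mki67, a marker of dividing cells, stood at 64.2 (21 UMIs) CPM in cKO 7 d replicate 2, the deepest library, and at no more than 17.0 in the others.

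Border-associated macrophage genes were found in uninjured and injured mice. F13a1 was at 1591, 1269.6 and 742 CPM at 1 d, 634, 248 and 682 at 7 d, 763, 509.8 and 511 at 14 d and 1775 and 524 in WT uninjured replicates 1 and 2. Mrc1 was at 79.6, 282 and 7.50 CPM at 1 d, 724, 186 and 483 at 7 d, then 699, 612 and 236 at 14 d. For Mrc1 the mice of 7 d and 14 d overlapped with cKO 1 d replicate 1. Of the 12 genes 9 were tested, with 0 called by edgeR or DESeq2, 4 at an unadjusted p under 0.05 and 6 above 0 at 7 d against 1 d (median 0.78). Lyve1, a hyaluronan receptor, was at 0 in 9 of the 14 mice.

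Lymphocytes were few and unevenly spread. Cd79a, a signalling chain of the B-cell receptor, was at 949.9 (58 UMIs) CPM in WT uninjured replicate 2 and 1593 (19 UMIs) in cKO uninjured replicate 2, and at 52.5 or less in the mice of 1 d. The B-cell list summed to 4488 and 6875 CPM in these uninjured mice. It summed to 5136 CPM in the injured mouse WT 7 d replicate 2, which is outside the tests. Cells with at least 2 B-cell genes numbered 18 in WT uninjured replicate 2, 9 in cKO 7 d replicate 2 and no more than 4 in the other 12 mice. The T-cell list summed to 1077 CPM in cKO 14 d replicate 2 and to no more than 639 in the other tested mice, with Trbc2, the constant part of the T-cell receptor β chain, at 220.1 (28 UMIs) CPM. NK-cell genes were led by Gzma, a protease of cytotoxic granules, at 311 (19 UMIs) CPM in WT uninjured replicate 2, 135 (44 UMIs) in cKO 7 d replicate 2 and 105 (14 UMIs) in cKO 1 d replicate 2. At 7 d against 1 d, 0 of 2 T-cell genes, 0 of 1 NK-cell gene and 0 of 5 B-cell genes tested were called by edgeR or DESeq2. In the same order, 1, 0 and 3 had an unadjusted p under 0.05. With the block edgeR called 1 B-cell gene, the immunoglobulin gene Igkc (adjusted p = 0.0292), beside 1.36% of all genes tested. Igkc was lower at 7 d, at 42.5 ± 73.6 CPM at 1 d (SD, n = 3) and 0 in the tested mice of 7 d. Its call thus sets low counts against 0.

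Dendritic-cell genes were led by Irf8, a transcription factor of these cells and of macrophages, at 97.5 to 499 CPM in the 10 tested mice. Cd209a was at 0 or 45.0 CPM in the mice of 1 d, 90.5, 0 and 153 at 7 d, then 95.3, 408 and 70.7 at 14 d. The genes of cross-presenting dendritic cells, Xcr1 and Clec9a, were highest in WT 14 d replicate 2, at 157 (13 UMIs) and 242 (20 UMIs) CPM. Of the 10 genes, 2 were tested and 0 called at 7 d against 1 d by edgeR or DESeq2 (1 at an unadjusted p under 0.05). Neutrophil genes had 0 of 11 tested, with Ly6g at 0, and mast-cell genes 0 of 5, with Cpa3, Mcpt4 and Tpsb2 at 0.

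Against the uninjured mouse, 1 gene was called in the mean of the 3 injured days, Bach2 (ENSMUSG00000040270.16, chromosome 4, 32238804 to 32586108), a repressor of transcription in B and T lymphocytes. The call sets the injured mice against that single mouse. Bach2 was at 1228 (75 UMIs) CPM in WT uninjured replicate 2 and at 63.6 to 552, with a median of 124, in the 9 injured mice of the test (log2 fold change -4.47, SE 0.71, adjusted p = 0.0416). The uninjured mouse is WT and genotype is a term of the fit, so this fold change refers to the level fitted for injured WT mice. The fit put Bach2 higher in cKO by 2.07 on the log2 scale (SE 0.62, adjusted p = 0.759 by edgeR). The injured WT mice held 79.6 (2 UMIs), 90.5 (1 UMI) and 63.6 (2 UMIs) CPM, while the 6 cKO mice held 105 to 552, nearer to the uninjured mouse. The 2 sides of the test did not overlap, as in 386 of the 1992 genes tested. Outside the test, however, WT 7 d replicate 2, with 6 cells, held 1241 (36 UMIs) CPM. Also outside it, the uninjured mice WT replicate 1 and cKO replicate 2 held 209 (2 UMIs) and 755 (9 UMIs). Of the genes tested, 0.0502% were called lower and 0% higher, with 190 at an unadjusted p under 0.05; DESeq2 called 16 (0.803%), none of them Bach2, for which it gave no adjusted p.

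The comparison rests on 1 uninjured mouse, which held the Vpreb3 and Rag1 cells. Its Immuno cells had a median of 3.99% mitochondrial UMIs, against medians of 1.01% to 2.12% in the injured mice of the test. In the uninjured mice WT replicate 1 and cKO replicate 2 the medians were 11.3% and 5.34%. The part of this difference in the results was not tested. The call was lost with the block. It was also lost with at least 5 cells per mouse (log2 fold change -1.45, adjusted p = 0.387 by edgeR, 4 genes called). That minimum brings in the uninjured WT replicate 1 and cKO replicate 2. It also brings in the injured WT 7 d replicate 2 and WT 14 d replicate 2, with Bach2 at 1241 and 472 CPM. With that minimum and WT uninjured replicate 2 left out, the log2 fold change was -0.68 (adjusted p = 0.805 by edgeR, 3 genes called). The part of each side in these smaller changes was not tested. Group means, which average the genotypes of a day, gave a log2 fold change of -3.41 and adjusted p = 0.0735, and taking mice by their cell names gave -2.27 and 0.183. The adjusted p was 0.166 with at least 20 cells by edgeR. The call was also lost, with 0 genes called and adjusted p from 0.0573 to 0.196, without WT 1 d replicate 1, WT 7 d replicate 1, cKO 7 d replicate 2, WT 14 d replicate 1 or cKO 14 d replicate 2, while 2, 2, 4 and 5 genes were called without cKO 1 d replicate 2, cKO 14 d replicate 1, cKO 7 d replicate 1 and cKO 1 d replicate 1.

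By list, 0 members were called by edgeR against uninjured, while 5 MHC class II genes, 3 complement and Fc receptor genes and 4 B-cell genes had an unadjusted p under 0.05, and DESeq2 called 4 MHC class II genes, 2 of complement and Fc receptors and 1 each of the border-associated and repair-associated lists, beside 0.803% of all genes. The MHC class II genes had a median of 2.24 with 8 of 9 above 0, complement and Fc receptors 2.34 with 9 of 9, lipid-loaded macrophage genes 1.91 with 14 of 15 and border-associated macrophage genes 1.91 with 8 of 9, beside -0.07 over all genes with 47.7% above 0. Inflammatory cytokines and chemokines had 5.58 with 7 of 8 above 0 and 3 at an unadjusted p under 0.05, but 5 of the 8 had 0 UMIs in the uninjured mouse. With such genes at the bound that 3 UMIs give, the median was 1.61 for this list, 2.08 for MHC class II, 1.93 for lipid-loaded macrophages and 1.55 for border-associated macrophages. B-cell genes had -4.16 with 1 of 5 above 0, T-cell genes -4.08 with 0 of 2 (2 at an unadjusted p under 0.05), and monocyte genes -0.91 with 1 of 12. Pf4 was at 16.4 (1 UMI) CPM in WT uninjured replicate 2 but at 1566 (15 UMIs) in WT uninjured replicate 1. These medians, which likewise refer to the level fitted for WT, therefore set the injured mice against a single mouse, whose B-cell genes summed to 4488 CPM and border-associated macrophage genes to 983, against 1358 and 8563 in the other WT uninjured mouse. Oligodendrocyte genes, markers of another cell type, had -2.07 with 0 of 4 above 0 (2 at an unadjusted p under 0.05, 0 called by edgeR or DESeq2); the list, led by Mbp, summed to 3554 CPM in that mouse and to 381 to 2354 in the 9 injured mice of the test, and its part in the other medians was not tested.

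Between 7 d and 14 d no gene was called (0% in each direction; 0 by edgeR and 0 by DESeq2, with 91 at an unadjusted p under 0.05 by edgeR). With the block 3 genes were called, with the shallow libraries left out 61, without a filter on low counts 34 and, taking each mouse by the condition its cell names give, 1. Left out singly, cKO 7 d replicate 2 gave 3, cKO 14 d replicate 1 gave 2, and cKO 7 d replicate 1 and WT 14 d replicate 1 gave 1 each. Fabp5 had the lowest p among the listed genes (log2 fold change -8.33, SE 2.00, adjusted p = 0.401), with 4115 CPM in cKO 7 d replicate 1 and 90.5 and 39.8 in the other mice of 7 d. MHC class II genes had 7 of 9 above 0 with a median of 0.73, heme and iron genes 0 of 6 (-0.94), repair-associated genes 1 of 9 (-0.73) and endothelial genes 4 of 4 (4.63, or 4.10 with the 1 gene at 0 UMIs on a side at its bound), beside 0.02 over all genes.

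No gene was called between cKO and WT by edgeR. Ryk (ENSMUSG00000032547.12, chromosome 9, 102834917 to 102908305) gave 21 UMIs in all 288 cells: 1 UMI in WT and 1 UMI and 2 UMIs in cKO at 1 d, 2 UMIs and 0 UMIs in WT and 1 UMI and 7 UMIs in cKO at 7 d, and 0 UMIs and 2 UMIs in WT and 1 UMI and 4 UMIs in cKO at 14 d, with 0 in uninjured mice. It was too low to be tested, and a 3′ tag need not fall in the deleted exons, so the genotype is not checked by them. In the fit with day as a term, edgeR called 0 of 1992 genes (0% in each direction) at 120 with an unadjusted p under 0.05, and DESeq2 called 1 (0.0502%). The median over all genes was 0.19, with 61.5% above 0.

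Markers of the cluster gave small or uncertain differences: Cd74 -0.35 (SE 0.43), H2-Aa 0.00 (SE 0.40), Lyz2 0.23 (SE 0.72) and Ccr2 1.06 (SE 0.58), as log2 fold changes of cKO over WT with 0 called by edgeR or DESeq2. Pf4 was at 1591 CPM in WT and 1072 and 607 in cKO at 1 d, 1449 and 92.8 and 153 at 7 d, and 667 and 509.8 and 487 at 14 d (log2 fold change -1.39, SE 0.48, adjusted p = 0.759). In each day the tested WT mouse was above both cKO mice. How many of all genes tested did so was not counted. Border-associated macrophage genes had 2 of 9 above 0 with a median of -0.87 and complement and Fc receptors 1 of 9 with -0.72, while monocyte genes had 10 of 12 with 0.68 and MHC class II genes 7 of 9 with 0.13; 0 members were called by edgeR or DESeq2. Endothelial genes, markers of another cell type, stood further from 0, with 4 of 4 above it and a median of 5.03, or 1.32 with the 2 genes at 0 UMIs on a side at their bound (2 at an unadjusted p under 0.05, 0 called by edgeR or DESeq2). The list, led by Flt1, summed to 119, 0 and 0 CPM in the tested WT mice, in order of time. In cKO replicate 1 it was 1044, 30.9 and 467, and in replicate 2 52.5, 147 and 1391, in the same order. WT 14 d replicate 2, outside the test with 8 cells, held 3475, and the part of this RNA in the genotype values was not tested.

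The 3 injured WT mice in this test are all replicate 1, while each day has a cKO mouse of replicate 1 and of replicate 2, so genotype and batch are partly bound together, and so are genotype and depth at 1 d and 7 d. With the block 0 genes were called and with the shallow libraries left out 18, where 2 WT mice remain and the fit has little left to estimate the spread; each mouse left out in turn gave 0.

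Promoters are shown for H2-Aa and H2-Eb1, which were low in all mice of 1 d and high after it, and for Mgl2, which was found at 7 d and 14 d but not at 1 d. Of 10 genes looked for, RefSeq entries of 300 bases around the gene start were used for 4, on GRCm38.p6. The fourth entry, of Bach2 (chr4:32417185-32417484, plus strand), lies inside the span given above for that gene and is not shown. Motifs searched on both strands were the CCAAT box (ATTGG) and the cyclic AMP response element (TGACGTCA), which do not overlap in letters and were chosen after these sequences had been read. They are in 37.9% and 1.88% of 27025 mouse promoters of this length. The sequences are H2-Aa at chr17:34287774-34288073 on the minus strand, H2-Eb1 at chr17:34305617-34305916 on the plus strand and Mgl2 at chr11:70130107-70130406 on the plus strand. Class II promoters are known to bind the CCAAT factor NF-Y and, at their X box, factors of the cyclic AMP response element family.
H2-Aa: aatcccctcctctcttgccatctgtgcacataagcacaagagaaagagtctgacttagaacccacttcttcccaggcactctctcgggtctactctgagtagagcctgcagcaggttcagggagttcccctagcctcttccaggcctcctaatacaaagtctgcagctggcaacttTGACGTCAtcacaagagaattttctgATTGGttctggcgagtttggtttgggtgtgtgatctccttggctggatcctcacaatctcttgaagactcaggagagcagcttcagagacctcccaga
H2-Eb1: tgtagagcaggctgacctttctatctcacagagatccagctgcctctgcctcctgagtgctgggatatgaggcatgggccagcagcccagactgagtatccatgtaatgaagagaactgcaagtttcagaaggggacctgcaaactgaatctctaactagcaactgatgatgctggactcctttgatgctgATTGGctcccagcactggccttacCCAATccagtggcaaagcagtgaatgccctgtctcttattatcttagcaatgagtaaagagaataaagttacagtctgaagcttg
Mgl2: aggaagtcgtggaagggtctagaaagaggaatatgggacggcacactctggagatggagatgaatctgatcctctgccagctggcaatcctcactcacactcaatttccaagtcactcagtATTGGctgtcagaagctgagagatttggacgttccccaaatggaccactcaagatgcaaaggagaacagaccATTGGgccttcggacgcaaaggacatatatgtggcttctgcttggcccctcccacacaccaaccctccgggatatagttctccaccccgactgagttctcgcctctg
Capitals mark the matches, 1 of each motif in H2-Aa and 2 CCAAT boxes each in H2-Eb1 and Mgl2. The Bach2 entry held 1 CCAAT box. A match is a run of letters, not a bound site, and since the motifs were picked from these sequences it carries no weight.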

How the data were processed

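Reads had been counted by the authors against mm10 in Cell Ranger (version not given in the sources used here), and the cells were integrated through Harmony in Seurat. The deposited matrix holds unnormalized UMI counts of 18203 cells by 55487 symbols, and it comes with a cell table whose percent of mitochondrial UMIs, deposited by the authors, reached 24.992 in the cells kept, which had at least 201 genes. Immuno cells were taken from the table's annotation; 6 of its columns were not used. Doublets were not called and free RNA was not removed.

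Counts were summed per mouse over its Immuno cells, and mice with at least 10 cells were tested with edgeR 4.0.16 (R 4.3.3; TMM, filterByExpr, quasi-likelihood test) with day and genotype as terms and Benjamini-Hochberg adjustment over all genes tested at 0.05; DESeq2 1.42.0 was an alternative. The test was tried on simulated counts. Shares were compared by exact permutation over mice with at least 50 cells, or 20 cells of Clusters 6, 10 and 12. Sub-clusters came from scanpy 1.11.5 (10000 counts per cell, 1000 variable genes, 10 components, 10 neighbours, Leiden resolution 0.5). Python 3.11.15, numpy 2.4.6, pandas 2.3.3, scipy 1.17.1 and matplotlib 3.10.9 were used. Positions are from an annotation of mm10 by symbol; promoters are from RefSeq.

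Named are the markers and Ryk, up to 10 called genes each way whose sides do not overlap, called or most abundant members of each list, the 10 leading genes of the cluster, and the 5 largest differences each way from Clusters 10, 6 and 16; some genes that this rule takes are not reported here. Members and lists were chosen with earlier results of these data known; other genes, the figure genes, the promoters and the motifs were picked after their values were seen. Replicate numbers were taken as pairing because the batch column equals them in 16 of 16 mice; deviations of same-numbered cKO mice correlated at 0.0718, 0.114 and 0.209 over 3 pairs of days, seen together with the blocked counts.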

Additional observations from a re-analysis of the deposited data

Results flagged for a closer look

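The share of Immuno cells among Clusters 6, 10 and 12 differed between cKO and WT in opposite directions at 1 d and 14 d: cKO minus WT was -7.15 percentage points at 1 d and 2.55 at 14 d, with every cKO mouse below the WT mouse at 1 d and every cKO mouse above both WT mice at 14 d. H2-Aa did so at 1 d and 7 d, with cKO minus WT of 130.3 CPM at 1 d and -853 CPM at 7 d, where both cKO mice lay above the WT mouse at 1 d and below it at 7 d. Apart from the share at 14 d, each rests on 1 WT mouse against 2 cKO mice. Whether the days differ was not tested. Only the 2 shares and the 5 markers were looked at in this way, a choice made after the shares were seen.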

How the results depend on the processing

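Counts of called genes moved with the processing; the cause was not tested except where fewer mice or more genes entered. For cKO against WT, 0 became 1 by DESeq2, 1 without the filter on low counts and 18 with the shallow libraries left out, and 0 to 0 with single mice left out. For injured against uninjured, 1 became 16 by DESeq2, 34 without the filter, 4 with at least 5 cells per mouse, 0 with at least 20, 26 without the shallow libraries, 3 with at least 5 cells and WT uninjured replicate 2 left out, and 0 to 5 with single mice left out. For 7 d against 1 d, 5 became 23 by DESeq2, 57 without the filter, 0 with group means, 17 with the conditions of the cell names, 116 without the shallow libraries, 19 without WT uninjured replicate 2 and cKO 7 d replicate 1 together, and 2 to 15 with single mice left out. For 14 d against 7 d, 0 became 34 without the filter, 1 with the conditions of the cell names, 61 without the shallow libraries and 0 to 3 with single mice left out; at least 20 cells per mouse could not be fitted. The settings that leave out WT uninjured replicate 2 together with another change, the fold of Mgl2 without single mice and the medians with genes at their bound were added after seeing the data.

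With the replicate block 27 genes were called at 7 d against 1 d, 3 at 14 d against 7 d, 1 for injured against uninjured and 0 for cKO against WT. For the shares the block gave 0.765 and 0.113 percentage points of all cells and -2.81 and 3.65 of Clusters 6, 10 and 12, for injured minus uninjured and cKO minus WT, and changed no call among them. For cKO minus WT the block stood in place of the day, so genotypes were not compared within days.

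No share passed its test in any setting run. The cKO minus WT share of cells turned to 0.113 with the block in place of the day, 0.437 without the shallow libraries and 0.190 without WT 1 d replicate 1 (range -0.907 to 0.190 with single mice left out). Without the shallow libraries or that mouse, the genotypes are compared at 7 d and 14 d alone. Injured minus uninjured ran from 0.528 to 1.32 with single mice left out, and was 0.0862 without the shallow libraries and 1.39 with at least 500 UMIs per cell. In Clusters 6, 10 and 12, injured minus uninjured ran from -11.8 to 1.60, turning without WT uninjured replicate 2, and cKO minus WT from -2.32 to 3.85, both with single mice left out. The latter was 8.75 without the shallow libraries, and turned to -0.339 with at least 500 UMIs per cell, -0.594 without cKO 1 d replicate 1, -0.589 without WT 7 d replicate 2, -2.32 without cKO 7 d replicate 2 and -0.274 without cKO 14 d replicate 2.

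With 10 to 45 cells in a mouse, a median of 1015.5 UMIs per cell and 5 residual degrees of freedom, genes of low level could not be tested, and a gene that missed the threshold is not shown to be unchanged.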
